A study of Mus musculus with 6 samples.

Results

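The GDNF-Ret branching pathway was followed here through 9 genes, Gdnf, Gfra1, Ret, Etv4, Etv5, Spry1, Dusp6, Sox8 and Sox9, in embryonic mouse kidneys with and without Fz4, the Wnt and Norrin receptor encoded by Fzd4. The genes were chosen with earlier results of these data known. Their probe sets were taken by gene name, as every probe set (a group of short oligonucleotides that reads 1 transcript) that the platform annotation gives to 1 of these genes alone. This gave 17 of the 45101 probe sets on the array. RNA of whole kidneys from E13.5 embryos was read on Affymetrix MOE430.2 arrays, in 3 Fz4-/- and 3 Fz4+/+ samples that come from 3 litters, with both genotypes in every litter. The labels give no strain, no construction of the Fz4 allele, no treatment and no count of embryos per sample, so p-values measure the spread between these samples. All values are RMA log2 signals as deposited, and a difference is Fz4-/- minus Fz4+/+ on that scale.

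GDNF is secreted by the mesenchyme around the ureteric bud. It binds the co-receptor GFRA1 and the receptor tyrosine kinase RET on the cells of the bud tip, and RET then signals through the ERK and PI3 kinase routes to drive outgrowth and branching. The ETS transcription factors ETV4 and ETV5 act downstream of RET in the tip, the SoxE factors SOX8 and SOX9 are needed for its full output, and Sprouty1 and the ERK phosphatase DUSP6 restrain it. Mice without GDNF, GFRA1 or RET mostly lack kidneys, and mice without Sprouty1 form extra buds.

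The stretch before the transcription start is shown for 4 members as context. Gdnf is the ligand, Sox8 had the member difference farthest from 0, and Dusp6 and Spry1 are the feedback genes with differences near 0. The RefSeq promoter table (GRCm38.p6) held 6 of the 9 members, and Ret, Etv4 and Sox9 were not among them. The 250 bases upstream of the first listed start are printed 5' to 3' on the strand of the gene. Capitals mark matches, on either strand, to CGGAAG (an ETS site), CTTTGA (TCF/LEF), AACAAT (SOX) or TATAAA (a core promoter box).
Gdnf, chr15:7809798-7810047, plus strand: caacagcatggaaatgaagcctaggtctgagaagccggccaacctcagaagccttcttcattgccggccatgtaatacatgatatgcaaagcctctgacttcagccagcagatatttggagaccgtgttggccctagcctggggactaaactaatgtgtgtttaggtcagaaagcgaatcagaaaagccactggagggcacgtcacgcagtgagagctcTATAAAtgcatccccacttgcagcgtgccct
Sox8, chr17:25570687-25570936, minus strand: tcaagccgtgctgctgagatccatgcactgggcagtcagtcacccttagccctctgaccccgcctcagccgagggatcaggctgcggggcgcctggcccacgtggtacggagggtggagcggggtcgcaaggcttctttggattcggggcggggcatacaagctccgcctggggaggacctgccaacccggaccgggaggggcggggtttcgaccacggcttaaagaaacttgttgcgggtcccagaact
Dusp6, chr10:99262981-99263230, plus strand: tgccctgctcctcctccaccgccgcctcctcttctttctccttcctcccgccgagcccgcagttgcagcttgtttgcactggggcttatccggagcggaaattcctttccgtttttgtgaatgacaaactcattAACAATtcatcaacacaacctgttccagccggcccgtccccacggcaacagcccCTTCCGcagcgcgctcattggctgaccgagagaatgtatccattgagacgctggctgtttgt
Spry1, chr3:37639697-37639946, plus strand: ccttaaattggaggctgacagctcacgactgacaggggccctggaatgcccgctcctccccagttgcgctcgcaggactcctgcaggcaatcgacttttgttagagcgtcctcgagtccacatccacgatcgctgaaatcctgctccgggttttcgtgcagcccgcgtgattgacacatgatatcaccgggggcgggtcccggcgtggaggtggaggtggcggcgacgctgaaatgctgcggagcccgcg
The Gdnf stretch held 1 TATAAA, beginning at -31 from the start, and none of the other 3 motifs. The table lists a second Gdnf start, whose upstream stretch held 1 CGGAAG match, at -38, and no TATAAA. The Dusp6 stretch held 1 CGGAAG match and 1 AACAAT match, beginning at -62 and -116 from the start. No searched motif was in the Sox8 or Spry1 stretch, and no matches overlapped. Over the 32841 upstream stretches of the same length, 13.6% held CGGAAG, 13.8% CTTTGA, 9.43% AACAAT and 12.4% TATAAA. A match describes the letters only. The array gives no binding data, and with differences this small the stretches are context for the genes rather than a result.

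Fzd4 itself separated the genotypes on 2 of its 3 probe sets. The brighter of them read 4.37, 3.58 and 6.22 in Fz4-/- kidneys of litters 1 to 3, against 11.21, 11.12 and 10.31 in Fz4+/+ kidneys, and the exact permutation test gave p = 0.1, the lowest value possible for 3 against 3. Across 27022 tested probe sets, limma called 0 (0%) at an adjusted p under 0.05, and Fzd4 had an adjusted p of 0.999988. An unadjusted p under 0.05 was met by 239 probe sets (0.884%), and by 841 (3.11%) with the litter as a block, again with 0 calls. The kidney markers were present, with 12 of 14 ureteric, 9 of 9 nephron progenitor and 10 of 11 stromal genes read by a tested probe set. The samples of litter 3 stood apart on the first principal component (48.7 in Fz4-/- and 70.1 in Fz4+/+, against -48.9 to -0.0980 in the other 4). Median signals ran from 6.62 to 6.74, and with 6 arrays their number limits the precision.

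None of the 9 genes passed the test, and the calls below are descriptions. Of the 17 member probe sets 16 passed the filter on mean signal (5.89 log2), and limma called 0 of the 16, and 1, of Etv4, had an unadjusted p under 0.05, as did 0.315% of all tested probe sets in that direction. The members were chosen with earlier results of these data known, so the shares over all tested probe sets give a scale and are not a test. On the brightest probe set of each gene, 8 of the 9 genes read lower in Fz4-/- kidneys on average, where 38.4% of all tested probe sets did. After quantile normalisation it was 9 genes, against 46.2% of all. The median member difference was -0.16, against 0.0334 over all tested probe sets. Of the 9 genes, 3 (Ret, Etv4 and Sox8) had all Fz4-/- readings below all Fz4+/+ readings, which held for 1.21% of all tested probe sets. These 3 with Gfra1 and Dusp6, 5 in all, were lower within all 3 litters, against 7.28% of all. No member was higher without overlap, as 2.42% of all were, and none was higher in all 3 litters, as 14.2% of all were. In whole kidneys, fewer cells that express a gene and less of its RNA per cell cannot be told apart.

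**Figure D1:**
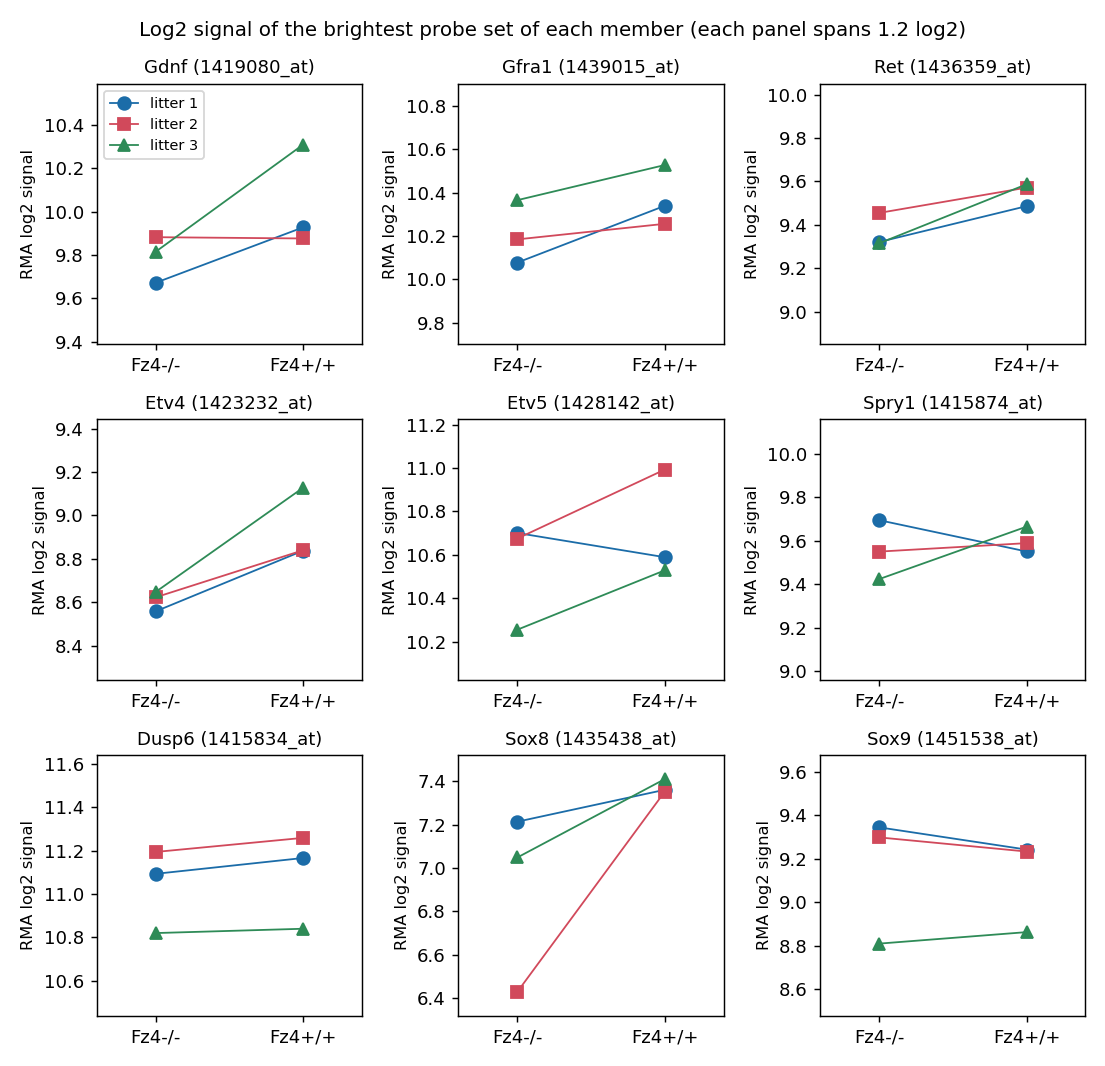
RMA log2 signal (vertical axis, each panel spanning 1.2 log2) of the brightest probe set of each member in Fz4-/- kidneys (left) and Fz4+/+ kidneys (right), with 1 point per sample and a line joining the samples of a litter. Ret, Etv4 and Sox8 show no overlap between genotypes, whereas Dusp6 and Sox9 separate litter 3 from litters 1 and 2 in both genotypes.

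Gdnf, the ligand, has 1 probe set. It read 9.67, 9.88 and 9.81 in Fz4-/- kidneys of litters 1 to 3, against 9.93, 9.88 and 10.31 in Fz4+/+ kidneys. The genotypes overlapped, because litter 2 gave equal readings (a difference of 0.0059) while litters 1 and 3 gave -0.26 and -0.49. The mean difference was -0.25 ± 0.15 (SE), with limma's unadjusted p of 0.151 and adjusted p of 0.999988. It was -0.11 without the Fz4+/+ sample of litter 3, the highest of the 6, and -0.0774 with array weights.

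Gfra1, the co-receptor that binds GDNF and presents it to RET, has 3 probe sets that did not move together. The brightest, 1439015_at, read 10.08, 10.18 and 10.36 in Fz4-/- kidneys of litters 1 to 3, against 10.34, 10.26 and 10.53 in Fz4+/+ kidneys. Each Fz4-/- sample was below its litter mate, by -0.26, -0.07 and -0.16, but litter 3 was high in both genotypes, so the groups overlapped. The mean difference was -0.17 ± 0.13 (SE), and it was -0.0885 when the Fz4+/+ sample of litter 3 was left out and -0.0992 when the Fz4-/- sample of litter 1 was.

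The other 2 probe sets of Gfra1 list the same source sequence in the platform annotation and yet read in opposite directions in litter 2. On 1421973_at the readings were 7.19, 7.11 and 7.07 in Fz4-/- kidneys, against 7.22, 7.52 and 7.22 in Fz4+/+ kidneys, with no overlap and a difference of -0.20 ± 0.12 (SE). On 1450440_at they were 7.06, 7.59 and 7.55 in Fz4-/- kidneys, against 7.13, 6.81 and 7.71 in Fz4+/+ kidneys. There the genotypes overlapped and the difference was 0.19 ± 0.27 (SE). Litter 2 gave -0.41 on the first of this pair and 0.78 on the second. Leaving out the Fz4+/+ sample of litter 2 brought them to -0.0995 and -0.0177.

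Ret, the receptor kinase of the tip, was lower without overlap on its brighter probe set and not on the other. On 1436359_at it read 9.32, 9.46 and 9.31 in Fz4-/- kidneys of litters 1 to 3, against 9.49, 9.57 and 9.59 in Fz4+/+ kidneys. All Fz4-/- readings lay below all Fz4+/+ readings, and the litters gave -0.17, -0.12 and -0.27. The mean difference of -0.18 ± 0.10 (SE), a ratio of 0.88, had limma's unadjusted p of 0.115, adjusted p of 0.999988 and an exact permutation p of 0.1. On 1421359_at Ret read 6.51, 6.51 and 6.67 in Fz4-/- kidneys, against 6.38, 6.27 and 7.10 in Fz4+/+ kidneys. Here the genotypes overlapped, litters 1 and 2 gave 0.13 and 0.24 and litter 3 gave -0.44, with a mean of -0.0234 ± 0.23 (SE). Without the Fz4+/+ sample of litter 3 this second value was 0.24.

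Etv4, an ETS factor downstream of RET, had the smallest unadjusted p of the members. On 1423232_at it read 8.56, 8.62 and 8.65 in Fz4-/- kidneys of litters 1 to 3, against 8.84, 8.84 and 9.13 in Fz4+/+ kidneys. The Fz4-/- readings were close together and all below the Fz4+/+ readings, and the litters gave -0.28, -0.22 and -0.48. The mean difference was -0.33 ± 0.12 (SE), a ratio of 0.80, with limma's unadjusted p of 0.0354, adjusted p of 0.999988 and an exact permutation p of 0.1. Its second probe set, 1443381_at, read 7.59, 7.55 and 7.77 in Fz4-/- kidneys, against 7.61, 7.86 and 7.88 in Fz4+/+ kidneys. It was lower in each litter as well, by -0.0159, -0.31 and -0.12, although the genotypes overlapped and the mean was -0.15 ± 0.13 (SE). Both Etv4 probe sets therefore read lower in all 3 litters, which no other member with several probe sets showed.

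Etv5, the close relative of Etv4 that acts with it in the tip, did not read in one direction. On its brightest probe set, 1428142_at, it read 10.70, 10.67 and 10.25 in Fz4-/- kidneys of litters 1 to 3, against 10.59, 10.99 and 10.53 in Fz4+/+ kidneys. The genotypes overlapped, and the difference was 0.11 in litter 1 and -0.32 and -0.27 in litters 2 and 3, with a mean of -0.16 ± 0.19 (SE). Leaving out the Fz4-/- sample of litter 3 brought it to -0.0156, and leaving out the Fz4+/+ sample of litter 2 to -0.0152. The other 2 probe sets share a source sequence and gave mean differences of 0.0394 ± 0.19 (1450082_s_at) and 0.0249 ± 0.17 (1420998_at). Their readings ran from 7.81 to 8.30 in Fz4-/- kidneys against 7.73 to 8.21 in Fz4+/+ kidneys on the first, and from 6.56 to 6.91 against 6.46 to 6.96 on the second. The difference between the changes of Etv4 and Etv5 was not tested.

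**Figure D2:**
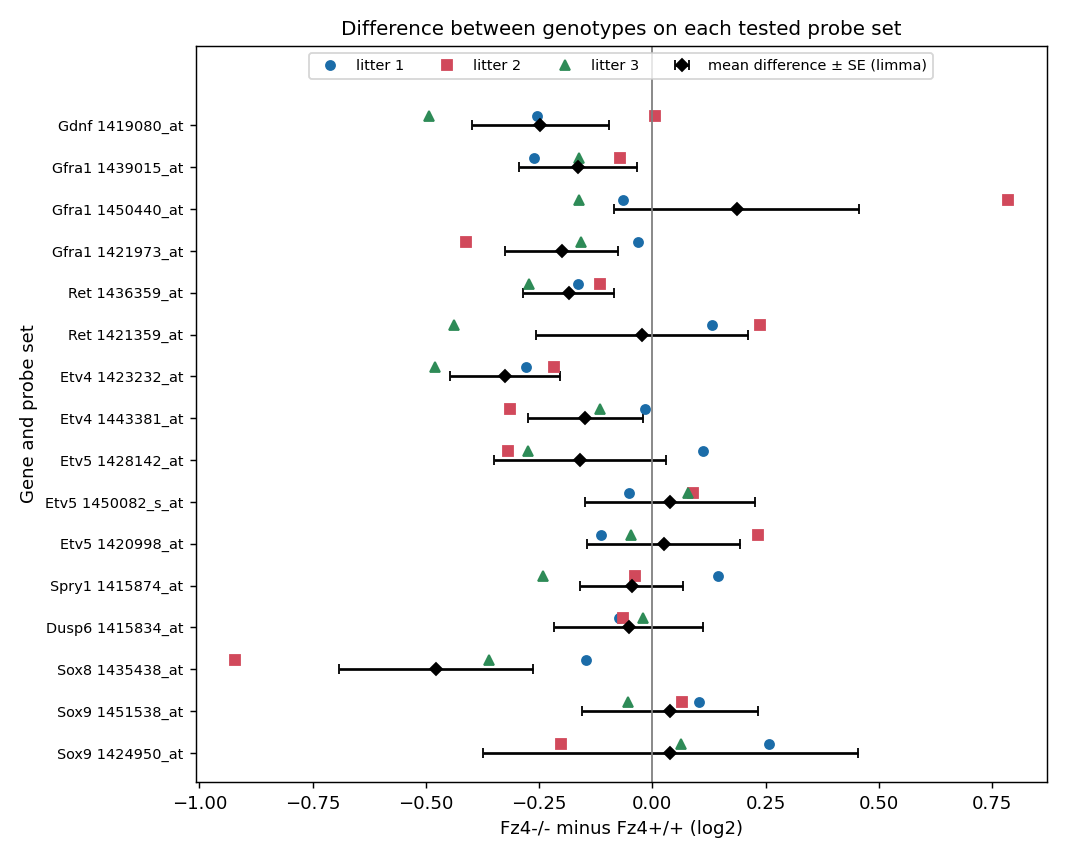
Difference between Fz4-/- and Fz4+/+ kidneys (horizontal axis, log2) on each of the 16 tested member probe sets, with the limma mean and its SE in black and the difference within each litter in colour. Both Etv4 probe sets lie below 0 in all 3 litters, whereas the probe sets of Gfra1 and Etv5 lie on both sides of 0.

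The feedback genes had differences near 0. Spry1, which encodes an inhibitor of receptor tyrosine kinase signalling, read 9.70, 9.55 and 9.42 in Fz4-/- kidneys of litters 1 to 3, against 9.55, 9.59 and 9.67 in Fz4+/+ kidneys. The genotypes overlapped and the litters gave 0.14, -0.0390 and -0.24, with a mean of -0.0454 ± 0.11 (SE). Dusp6, whose phosphatase product inactivates ERK, read 11.09, 11.19 and 10.82 in Fz4-/- kidneys, against 11.17, 11.26 and 10.84 in Fz4+/+ kidneys. Its litters gave -0.0729, -0.0649 and -0.0199, so the samples of a litter nearly coincided while litter 3 lay below the others. The mean difference was -0.0526 ± 0.16 (SE), with limma's unadjusted p of 0.759.

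Sox8, a SoxE factor of the tip, had the largest difference of the members in size, and 1 sample carried much of it. It read 7.21, 6.43 and 7.05 in Fz4-/- kidneys of litters 1 to 3, against 7.36, 7.35 and 7.41 in Fz4+/+ kidneys. The Fz4+/+ samples lay close together (SD 0.0313, against 0.413 in Fz4-/- samples) and all Fz4-/- samples were below them, with litter differences of -0.15, -0.92 and -0.36. The mean was -0.48 ± 0.21 (SE), a ratio of 0.72, with limma's unadjusted p of 0.0667, adjusted p of 0.999988 and an exact permutation p of 0.1. The difference was -0.24 when litter 2's Fz4-/- sample was left out and -0.85 with array weights. That sample also had the lowest mean signal over the muscle markers, at 6.22 (7.45 and 7.61 in the other Fz4-/- samples, against 7.61, 8.40 and 7.64 in Fz4+/+ samples of litters 1 to 3). All 10 of the 10 muscle markers read lower on average in Fz4-/- kidneys, where 38.4% of all tested probe sets did. Actn2, Actc1 and Myh3 differed by -0.55, -0.85 and -1.16, and the part of the muscle markers in the Sox8 result was not tested.

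Sox9, the other SoxE factor of the tip, did not separate the genotypes. On 1451538_at it read 9.34, 9.30 and 8.81 in Fz4-/- kidneys of litters 1 to 3, against 9.24, 9.23 and 8.86 in Fz4+/+ kidneys. On 1424950_at, which lists the same source sequence, it read 7.71, 7.30 and 6.50 in Fz4-/- kidneys, against 7.45, 7.50 and 6.43 in Fz4+/+ kidneys. Litter 3 was the lowest in both genotypes on both probe sets. The mean differences between genotypes were 0.0382 ± 0.19 and 0.0398 ± 0.41 (SE), and both turned to -0.00158 and -0.00275 after quantile normalisation. The remaining Sox9 probe set, 1433889_at, was near background, at 3.58 ± 0.0632 in Fz4-/- kidneys and 3.50 ± 0.0791 in Fz4+/+ kidneys (SD, n = 3 each), and was not tested.

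The samples of litter 3 stood apart in both genotypes on several members, as they did on many other probe sets of the array. Both litter 3 samples read below the other 4 on 5 of the 16 tested member probe sets, namely both of Sox9, that of Dusp6, and 1428142_at and 1450082_s_at of Etv5, where 15.5% of all tested probe sets did so. The difference of litter 3 from the mean of the other 4 was -1.02 and -0.44 for Sox9 (1424950_at and 1451538_at) and -0.35 for Dusp6. For Etv5 it was -0.35 and -0.40 on those 2 probe sets. Both litter 3 samples read above the other 4 on 3 member probe sets, 1439015_at of Gfra1 (0.23), 1421359_at of Ret (0.47) and 1420998_at of Etv5 (0.34), where 36.9% of all did. Thus the Etv5 probe sets 1450082_s_at and 1420998_at, from 1 source sequence, differed in direction between litters. limma's test of the litter term, with genotype in the fit and chosen after the data were seen, made 0 calls over the 27022 tested (0%), and 6225 (23.0%) had an unadjusted p under 0.05. Among the members 4 of 16 met that level, a share near that over all. Among the members the smallest adjusted p of limma's litter term was 0.145, for 1424950_at of Sox9. This was also the lowest value over all tested probe sets, but others shared it, among them probe sets of Fzd4 and Artn. It therefore does not single out Sox9. The cause of the litter difference was not tested.

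**Figure D3:**
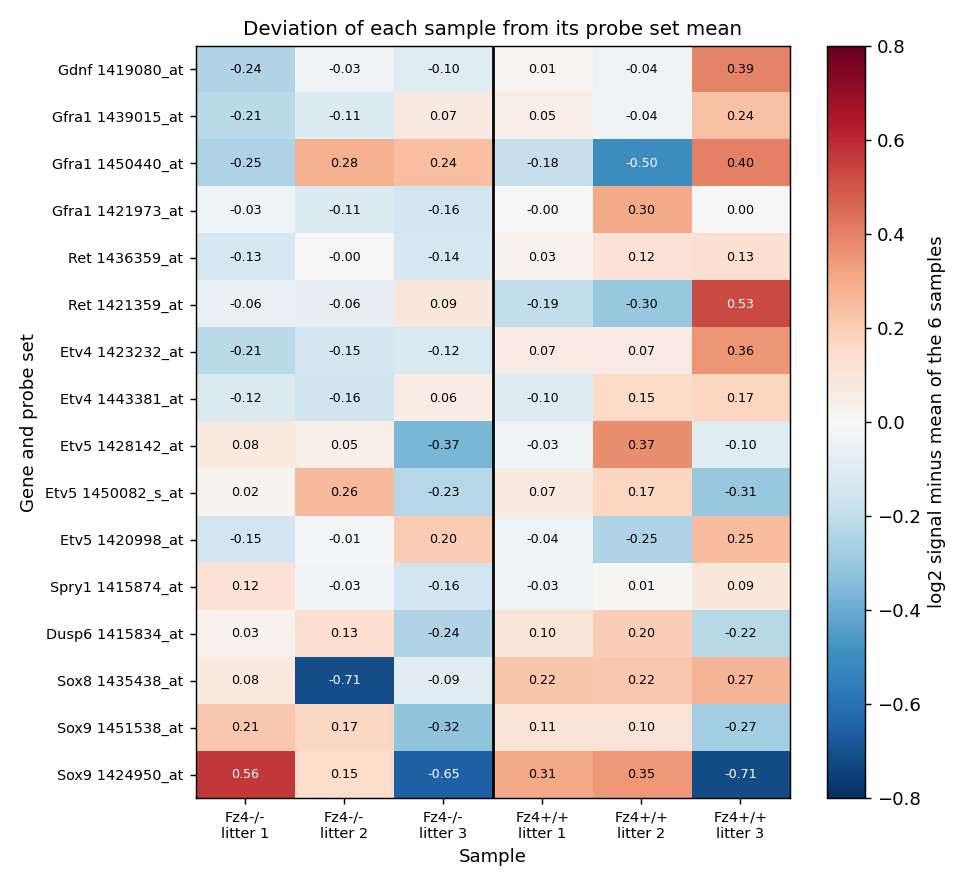
Deviation of each sample from the mean of its probe set (log2, colour and printed value) for the 16 tested member probe sets (rows), with Fz4-/- samples left of the black line and Fz4+/+ samples right of it. The columns of litter 3 hold the low Sox9 values (-0.65 in Fz4-/- and -0.71 in Fz4+/+ on 1424950_at), and the lowest Sox8 value, -0.71, is the Fz4-/- sample of litter 2.

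Of the 5 members with more than 1 tested probe set, 2 (Ret and Etv4) had all of them below 0, 1 (Sox9) had all above 0, and 2 (Gfra1 and Etv5) had probe sets on both sides. With the mean of a gene's tested probe sets in place of the brightest, the difference was -0.24 for Etv4, -0.10 for Ret, -0.0597 for Gfra1 and -0.0319 for Etv5. The values of Ret, Gfra1 and Etv5 thus came closer to 0 by more than 1.5 times, whereas Gdnf, Spry1, Sox8 and Dusp6 rest on 1 probe set each and have no such check.

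The compartments that make these transcripts were read beside them. Of the 27022 tested probe sets, 16636 read higher in Fz4-/- kidneys and 38.4% lower. Ret, Etv4 and Sox8 are expressed at the tips of the ureteric epithelium, and the marker list covers that epithelium as a whole, not its tips alone. These markers read higher in Fz4-/- kidneys for 12 of 12 tested genes, with a median of 0.24 and none called. Hoxb7 and Elf3 were under the filter. The list mean differed by 0.0374, 0.61 and 0.14 in litters 1 to 3. The mean of that list was 9.59, 9.69 and 9.79 in Fz4-/- kidneys of litters 1 to 3, against 9.55, 9.08 and 9.65 in Fz4+/+ kidneys, so the Fz4+/+ sample of litter 2 was the lowest, and the median was 0.13 without it. Cdh1 and Krt7, an adhesion molecule and a keratin of this epithelium, differed by 0.24 and 0.50, and the transcription factor gene Tfcp2l1 by 0.25. Markers of the nephron progenitors, among the cells that secrete GDNF, read lower for 8 of 9 genes with a median of -0.10 and none called. Their mean was 8.43, 8.64 and 8.67 in Fz4-/- kidneys, against 8.59, 8.72 and 8.88 in Fz4+/+ kidneys, and each Fz4-/- sample was below its litter mate. Cited1, a marker of uncommitted progenitors, differed by -0.33, Meox2 by -0.29 and Crym by -0.22. The part of these shifts in the member results was not tested.

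Other tissues that express members were also read, beside the 38.4% of all tested probe sets that read lower in Fz4-/- kidneys. Ret serves sympathetic and enteric neurons, and Sox8 and Sox9 serve Sertoli cells, glia or cartilage. Of the nerve and glia list 5 of 7 tested genes read lower in Fz4-/- kidneys, with a median of -0.19. Its mean was 7.03, 6.96 and 7.57 in Fz4-/- kidneys of litters 1 to 3, against 7.12, 7.74 and 8.13 in Fz4+/+ kidneys. The list median ran from -0.70 to -0.0617 with 1 sample left out. Chgb, Isl1 and Chga, genes of neuroendocrine cells, differed by -1.86, -1.19 and -0.80, although Isl1 and Chga read higher in litter 1, by 0.15 and 0.33. The neuronal tubulin gene Tubb3 and Fabp7, named after their values were seen, differed by 0.57 and 0.18. The part of these genes in the Ret and Sox8 results was not tested. The defining glial gene Sox10 was under the filter, at 5.51, 5.45 and 5.52 in Fz4-/- kidneys, against 5.70, 5.76 and 5.84 in Fz4+/+ kidneys, and the sympathetic genes Phox2a, Th and Dbh were under it too. Of the gonad list only Star passed the filter, and Amh, Dmrt1 and Nr5a1 were under it. Of 4 cartilage genes 3 read lower, with a median of -0.13, and Hapln1, Sox5 and Col2a1 differed by -0.14, -0.15 and -0.12. The stroma had 7 of 10 genes above 0 (median 0.0281), the endothelium 7 of 9 (median 0.18) and macrophages 3 of 8 (median -0.0327), and liver genes were below 0 in 7 of 7 (median -0.49).

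The rest of the pathway did not move in one direction. For scale, 16636 of the 27022 tested probe sets were above 0 and 38.4% below it. Among the other GDNF family ligands and co-receptors 3 of 4 tested genes were above 0, with a median of 0.18. Gfra2, the co-receptor of neurturin, read 9.46, 9.78 and 9.43 in Fz4-/- kidneys of litters 1 to 3, against 9.11, 9.56 and 9.10 in Fz4+/+ kidneys. It was thus higher in each litter, by 0.35, 0.23 and 0.33, though the genotypes overlapped, and limma's adjusted p was 0.999988. Gfra4, Artn and Gfra3 differed by 0.17, 0.20 and -0.11. Nrtn and Pspn were under the filter.

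Of 15 genes that regulate Gdnf or its response in the mesenchyme, 11 were above 0, with a median of 0.0354. Eya1, a co-activator needed for Gdnf expression, differed by -0.26 and its partner Six4 by -0.23, whereas Foxc1, which limits where Gdnf is made, and Osr1 differed by 0.18 and 0.24. Foxc1, 1 of the 15, was higher without overlap, where 2.42% of all tested probe sets were. Eya1 read 10.67, 10.66 and 10.61 in Fz4-/- kidneys of litters 1 to 3, against 10.64, 11.06 and 11.01 in Fz4+/+ kidneys. It was level in litter 1 and lower in litters 2 and 3, whereas Gdnf was level in litter 2 and lower in litters 1 and 3. Each litter value rests on a single pair of samples, and a link between Eya1 and Gdnf was not tested. Among 5 other genes that depend on Ret signalling in the tip, 3 were below 0, with a median of -0.0892. Cxcr4, a chemokine receptor gene, was lower in each litter (-0.25, -0.18 and -0.0887, mean -0.17 ± 0.19 SE), and Myb, Wnt11 and Met differed by -0.0892, -0.0950 and 0.0809.

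The adaptors and kinases that carry the RET signal were near 0, with a median of 0.0374. Of these, 14 of 22 were above 0, a share near that of all tested probe sets. Plcg1, Nras, Map2k1 and Grb7 differed by 0.0895, 0.10, -0.0776 and 0.12. The other inhibitors of the pathway had 9 of 17 below 0, where 38.4% of all tested probe sets were, and a median of -0.000432. Dusp2, Rasa1 and Spry4 differed by -0.15, -0.15 and -0.16, and Spry3 by 0.40. Dusp2 and Rasa1, 2 of the 17, were lower without overlap, where 1.21% of all tested probe sets were. Of 12 genes for parallel inputs to the tip 8 were above 0, with a median of 0.0295, and Pax8, Gata3, Rara and Rarg differed by 0.21, 0.17, -0.0946 and 0.0838. No gene of these 6 pathway lists was called, and their medians, apart from those of the GDNF family and the Ret-dependent genes, lay between -0.000432 and 0.0374, beside 0.0334 over all tested probe sets.

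**Figure D4:**
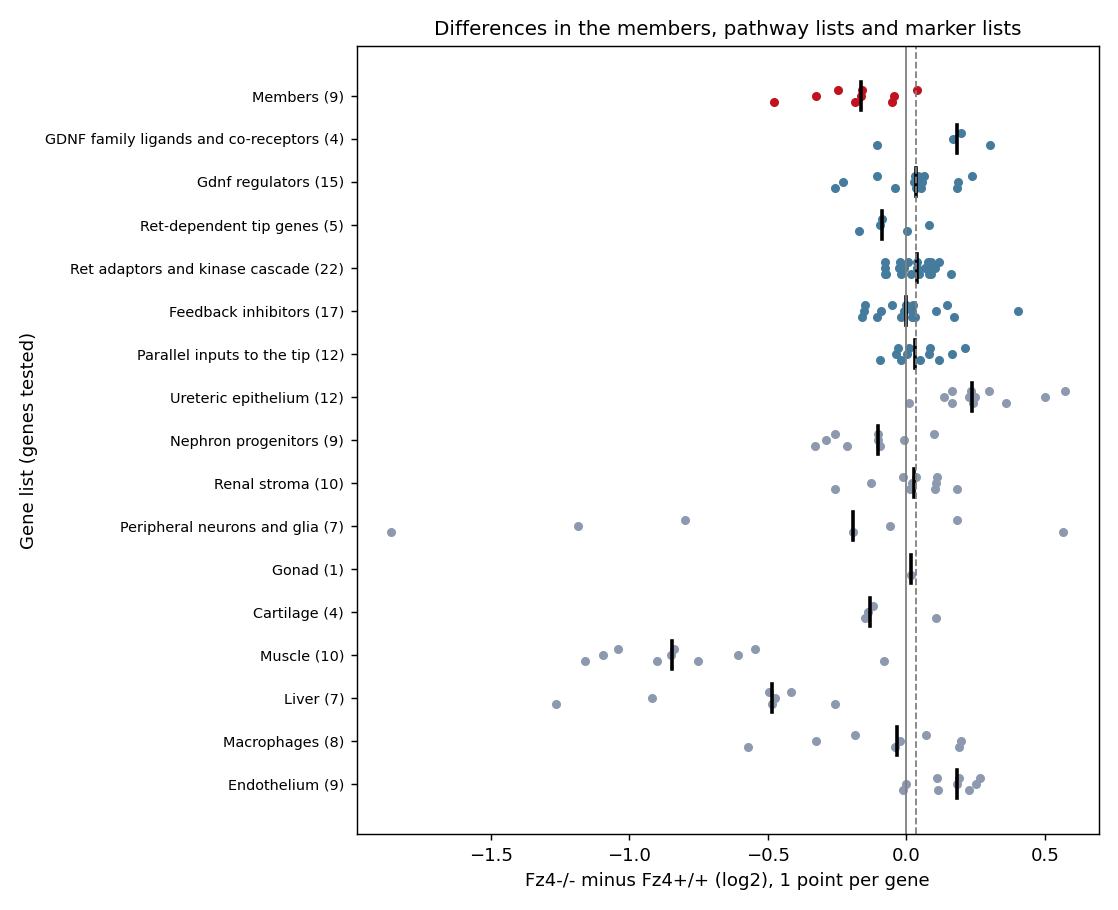
Difference between Fz4-/- and Fz4+/+ kidneys (horizontal axis, log2) for each gene (1 point, brightest probe set) of the members (red), 6 pathway lists (blue) and 10 marker lists (grey), with each list's median as a black bar and the median over all tested probe sets as a dashed line. The members have a median of -0.16, and the ureteric epithelium and muscle lists have medians of 0.24 and -0.85.

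The genes whose profiles over the 6 samples lay nearest to those of Gdnf and Ret were found by the root mean square distance between log2 profiles, each centred on its own mean. For Gdnf these were Gtf2h4 (0.0572), Dhrs7 (0.0582) and Caprin2 (0.0605), where the median distance over 12534 genes was 0.227. All of them had their highest reading in the Fz4+/+ sample of litter 3, as Gdnf had. For Ret, on 1436359_at, they were Kitl (0.0293), which encodes the ligand of the receptor kinase KIT, Rasa1 (0.0352) and Zfp871 (0.0382), against a median distance of 0.204. Kitl read 10.10, 10.21 and 10.12 in Fz4-/- kidneys of litters 1 to 3, against 10.21, 10.32 and 10.37 in Fz4+/+ kidneys. The readings of Ret span only 0.27 log2 in all, so these distances compare small movements.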

How the data were processed

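Biotin-labelled cRNA of 6 whole-kidney samples was read on MOE430.2 arrays. The deposited values are log2 expression per probe set, which the authors made with RMA, per the submitters' processing notes, with no version given. They run from 2.22 to 14.79 and were used unchanged. RMA equalises the arrays' distributions and compresses differences near background, and no detection call was available.

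Gene names came from the platform annotation, with Entrez numbers checked against RefSeq (GRCm38.p6). No member probe set listed several genes. The 64 control probe sets were dropped, and those with a mean at or above the 40th percentile were tested with limma 3.58.1 in R 4.3.3 (lmFit, eBayes, two-sided, Benjamini-Hochberg over 27022), with genotype as the sole term. Exact permutation tests were two-sided. The fit was checked on simulated data.

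The labels tie replicate numbers to litters. Deviations from the genotype means correlated by 0.577, 0.178 and 0.809 in litters 1 to 3. Correlations between samples of different litters were not computed, so these values do not test the pairing, which rests on the labels. Alternatives were the litter as a block or random effect, other filters, quantile normalisation, another variance prior, array weights, and samples or litters left out.

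Named genes were the members, Fzd4, up to 4 of each pathway list and 3 of each marker list by smallest unadjusted p, and the 3 profiles nearest to Gdnf and to Ret. Members and lists were chosen with earlier results of these data known, so the shared lower readings of Ret, Etv4, Sox8 and Gdnf are not independent support. Defining marker genes under the filter, Eya1 by litter and the motifs were added after values were seen.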

Additional observations from a re-analysis of the deposited data

How the results depend on the processing

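Of 259 recomputed member differences, 230 kept their direction, 29 turned and 0 were called. With array weights limma called 2 probe sets, both of Fzd4 (-7.38 and -3.50, adjusted p of 0.0370), and 0 members. The replicate block for litter gave 0 calls and changed no call. Its SE was smaller than the printed one, from the fit without litters, for every tested member probe set but that of Spry1 (0.114, against 0.113). For Sox9 (1424950_at) it was 0.124, against 0.414, and for Dusp6 0.0864, against 0.164. The count at an unadjusted p under 0.05 was 239, against 841 with that block, 940 with the litter as a random effect, 531 with no filter, 141 with the 60th percentile filter, 126 with the trended robust prior, 6084 with array weights and 81 to 1725 with samples or litters left out. Among members this count was 0 to 3. After quantile normalisation Etv5 (1450082_s_at) turned to -0.0159 and Sox9 to -0.00158 (1451538_at) and -0.00275 (1424950_at). With array weights Ret (1421359_at) turned to 0.11, Etv5 (1428142_at) to 0.0133, Sox9 (1424950_at) to -0.12 and Dusp6 to 0.00825. The causes were not tested.

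With samples or litters left out, Gfra1 (1450440_at) ran from -0.11 to 0.43 (-0.0177 without Fz4+/+ replicate 2), Ret (1421359_at) from -0.18 to 0.24 (0.18 without litter 3), Etv5 from -0.30 to -0.0152 (1428142_at), from -0.10 to 0.16 (1450082_s_at) and from -0.0929 to 0.16 (1420998_at, -0.0792 without litter 2), Spry1 from -0.14 to 0.0527 (0.0209 without Fz4-/- replicate 3), Dusp6 from -0.18 to 0.0552, and Sox9 from -0.0871 to 0.21 (1451538_at) and from -0.31 to 0.38 (1424950_at, -0.0695 without litter 1). Gdnf, Etv4 and Sox8 stayed below 0 under all alternatives run, as did 1436359_at of Ret and 1439015_at and 1421973_at of Gfra1. Chosen after the data were seen, the number of members below 0 was 6 to 9 and that lower without overlap 3 to 4 with samples or litters left out, where the share of all tested probe sets was 32.9% to 50.8% below 0 and 2.57% to 9.24% lower without overlap. Without Fz4+/+ replicate 2 it was 7 of 9 members against 50.5% of all below 0. Sox8 and the second Fzd4 probe set did not pass the 60th percentile filter and have no value there. The same holds for 1450440_at and 1421973_at of Gfra1, 1421359_at of Ret, 1420998_at of Etv5 and 1424950_at of Sox9. Signal near background limits Sox9 on 1433889_at. With 1 sample left out the marker list medians ran from 0.13 to 0.33 for ureteric epithelium, from -0.25 to -0.0430 for nephron progenitors and from -1.19 to -0.37 for muscle.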
